A study of Homo sapiens with 12 samples.

Results

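Type I interferon-stimulated genes were followed as a group of 44 genes, taken by name from a written list, in RNA-sequencing counts of the human monocytic cell line THP1. All 44 rows were found among the 58735 rows of the count table, and the rule that picks them is this list of names, with no cut on expression. THP1 cells of the wild-type genotype were cultured for 24 h in endothelial cell medium in 4 groups of 3 libraries: alone (mono-culture), or in the upper chamber of an insert with 1 µm pores above ECs that were control ECs, senECs or EGCG-treated senECs. The ECs were human umbilical vein endothelial cells, plated at 500000 cells per well against 400000 THP1 cells. Control ECs had received the solvent DMSO, senECs etoposide, a topoisomerase inhibitor that damages DNA and drives cells into senescence, and EGCG-treated senECs etoposide and, after it, EGCG, a catechin of green tea. The THP1 cells were then taken out and stimulated with 100 ng/ml LPS, the endotoxin of Gram-negative bacteria, for 2 h, so that every library, mono-culture included, comes from LPS-stimulated cells and none shows the state without LPS. The ECs were washed and plated again after the drugs. THP1 is 1 leukaemia line, and etoposide-induced senescence is a drug model of ageing. The labels number the libraries 1, 2 and 3 in mono-culture and with control ECs, and 1, 2 and 5 with senECs and EGCG-treated senECs. They do not say that libraries of a group came from separate cultures, so that p-values measure the spread between these libraries, which may be technical.

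The libraries held 15439836 to 22092600 counts (median 18153783), and the limit that a count of 0 allows, 3 counts for counting error alone, was at most 0.191 CPM, a gene's count as a share of its library's total after TMM scaling. Replicates of a group differed by more than sampling noise in each of the 12 pairs, the chi-square divided by its degrees of freedom being 10.3 to 38.2. Of 14 monocytic markers, 13 had a mean of at least 1 CPM, and none was at 0 in any library. Of 14 endothelial markers, 12 had a mean under 3 CPM, and the defining gene CDH5 had 2 counts in all 12 libraries together. 1 library, EGCG-treated senECs replicate 5, stood apart for the interferon-stimulated genes: it was the highest of the 12 libraries for 29 of the 44, beside 9.37% of the 25873 genes tested. In bulk RNA, fewer cells that express a gene and less RNA of it per cell cannot be told apart.

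Interferon-α and interferon-β, the main type I interferons, bind a receptor made of IFNAR1 and IFNAR2, and the kinases JAK1 and TYK2 on that receptor start a signal that STAT2 and IRF9 carry to the nucleus. There a complex that holds both binds a DNA element called the interferon-stimulated response element and switches on a large set of genes. In monocytes LPS can start the same response through TLR4 and its adaptor TICAM1, which lead to interferon-β and to its action on the cell that made it. The products detect viral RNA (IFIH1, DDX58), degrade it or block its translation (OAS family, IFIT family, EIF2AK2), attach the ubiquitin-like protein ISG15 to other proteins (UBE2L6, HERC5), or hold viruses back at membranes (BST2, MX1, RSAD2). The genes STAT2, IRF9 and IRF7 are themselves induced and pass the signal on.

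Most of the 44 genes were read at low levels. All of them passed the filter of 10 counts over the 12 libraries, 41 had a mean of at least 1 CPM, and 27 had a mean above 1 FPKM, the unit that divides by gene length as well and allows levels to be compared between genes. The mean level was highest for BST2, which tethers budding virus to the cell surface, at 68.9 FPKM. It was followed by IFI6, a mitochondrial and endoplasmic reticulum protein that limits cell death and flavivirus replication, at 36.7 FPKM. Next came PLSCR1, a phospholipid scramblase, at 16.7 FPKM, UBE2L6, the conjugating enzyme for ISG15, at 10.6 FPKM and LY6E, a surface protein that blocks entry of coronaviruses, at 10.1 FPKM. ISG15 itself stood at 5.35 FPKM.

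Several genes that serve as standard readouts of an interferon response were read at a low level, IFIT1 among them with as little as 1 count in a library. IFIT1, which binds viral RNA caps, had a mean of 0.15 FPKM and between 0.06 and 1.87 CPM in single libraries. IFI44L had a mean of 0.11 FPKM, IFI27 0.17 FPKM and USP18, the enzyme that removes ISG15 from proteins and damps receptor signalling, 0.41 FPKM. RSAD2 (viperin), an enzyme that makes a chain-terminating nucleotide, had 0.84 FPKM, MX1, a dynamin-like GTPase that traps viral nucleocapsids, 0.98 FPKM and the RNA sensor DDX58 (RIG-I) 1.20 FPKM. Of the signal transducers, STAT2 stood at 7.46 FPKM, IRF7 at 2.39 FPKM and IRF9 at 1.17 FPKM. Fold changes of genes with few counts have wide errors, and differences under their spread were not detectable at this depth.

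**Figure D1:**
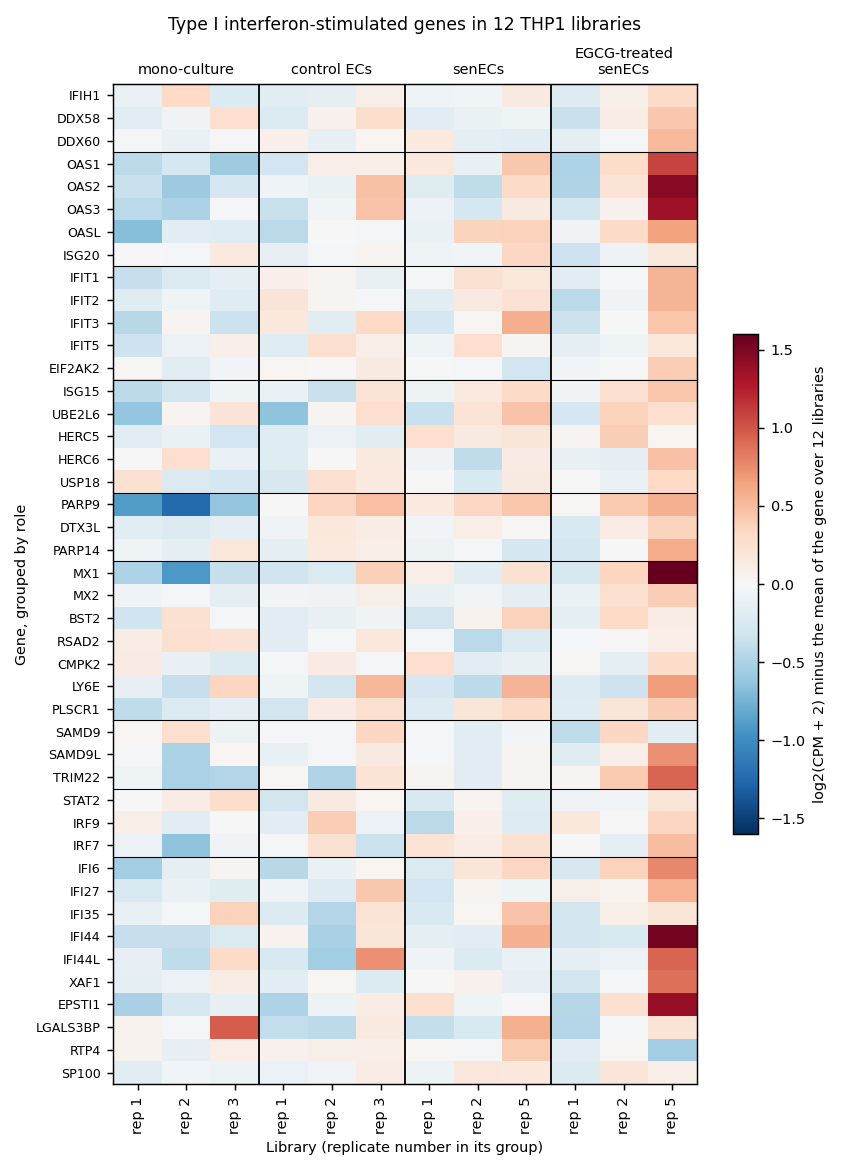
Level of the 44 interferon-stimulated genes (lines of the map, grouped by role) in the 12 libraries (columns, by group and replicate), as log2(CPM + 2) minus the mean of each gene over the 12 libraries, with red above and blue below that mean. PARP9 is low in the 3 libraries of mono-culture, and EGCG-treated senECs replicate 5 is the highest library for 29 of the 44 genes.

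The promoters of these genes carried the response element far more often than promoters at large. In the RefSeq windows from 250 bases before to 50 bases after a transcription start (build GRCh38.p14), the core, GAAA followed by any 2 bases and GAAA again and searched on both strands, was found for 25 of the 36 members that have a window (69.4%) and for 1195 of 27305 genes (4.38%). DDX58 was matched under its current symbol RIGI, and IFIT2, MX2, OAS2, OASL, USP18, TRIM22, IRF7 and LY6E have no window in the table. Cores of 6 promoters follow with 6 bases on either side, read in the direction of the core, and capitals mark the core. They belong to the gene that passed the test (PARP9, with its neighbour DTX3L), to 4 genes that stood out in 1 library (MX1, OAS3, IFI44, EPSTI1) and to ISG15 for comparison. The core did not mark the genes that stood out in that library, EGCG-treated senECs replicate 5. OAS1, XAF1 and SAMD9L also stood out there and have a window without the core. RTP4, which was lowest there, has the core.
PARP9 and DTX3L, chr3:122564326-122564347, plus strand: ggaagcGAAACTGAAActttgc
MX1, chr21:41420563-41420584, plus strand: agaaatGAAACCGAAActgaat
OAS3, chr12:112938456-112938477, plus strand: gggcggGAAAACGAAAccagaa
IFI44, chr1:78649765-78649786, minus strand: agaaagGAAACTGAAActcagt
EPSTI1, chr13:42992276-42992297, minus strand: ttctgaGAAACCGAAActcagc
ISG15, chr1:1013384-1013405, plus strand: gaaaggGAAACCGAAActgaag
A match describes these letters and was not tested as a site of binding.

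Comparison of each co-culture with mono-culture asks how a medium shared with ECs changes the LPS-stimulated monocytes. PARP9 rose 2.49-fold with control ECs, 2.54-fold with senECs and 2.63-fold with EGCG-treated senECs. In the model with group as its only term, it was the only 1 of the 44 genes called in any of the 6 comparisons among groups. With the replicate number as a further term, 5, 2 and 9 members were called against mono-culture in the same order (1.81%, 2.74% and 1.64% of all genes), MX1 in each. OAS3 was then called for EGCG-treated senECs against senECs (0.0502% of all genes). Calls between groups given below are from the model with group alone unless stated otherwise. PARP9 is an ADP-ribosyltransferase family member that works with the ubiquitin ligase DTX3L to strengthen interferon-driven transcription and antiviral defence. In mono-culture PARP9 was at 11.4, 8.61 and 14.3 CPM. With control ECs it was at 23.1, 29.7 and 32.8 CPM, with senECs at 25.9, 29.4 and 32.0 CPM, and with EGCG-treated senECs at 23.6, 31.6 and 35.0 CPM. All 9 co-culture libraries lay above the 3 of mono-culture, and the 3 co-cultures overlapped with each other. The group means were 11.4 ± 2.83 CPM in mono-culture and 28.5 ± 4.95, 29.1 ± 3.10 and 30.1 ± 5.84 CPM in the co-cultures (SD, n = 3). Against mono-culture, PARP9 had a log2 fold change of 1.32 (SE 0.18, adjusted p = 0.00268, edgeR quasi-likelihood test) with control ECs, 1.35 (SE 0.18, adjusted p = 0.00173) with senECs and 1.40 (SE 0.18, adjusted p = 0.00173) with EGCG-treated senECs. These tests share the 3 mono-culture libraries and are not independent of each other. With any 1 of the 12 libraries left out, PARP9 stayed called in all 3 comparisons, with a log2 fold change between 1.15 and 1.58. Between co-cultures the differences were small: 0.03 (95% interval -0.32 to 0.37) for senECs against control ECs and 0.05 (-0.29 to 0.39) for EGCG-treated senECs against senECs.

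DTX3L, the partner of PARP9, lies head to head with it on chromosome 3. In GENCODE release 29 (GRCh38), PARP9 spans 122527924 to 122564577 on the minus strand and DTX3L 122564238 to 122575203 on the plus strand, so that the ends of both models overlap. The PARP9 start used here is that of the RefSeq window that holds the core, so that its distance from the core follows from this choice. It lies 38 bases from the RefSeq start of DTX3L. The core printed above lies 32 to 41 bases upstream of this PARP9 start and across the DTX3L start. DTX3L was at 49.3, 47.7 and 50.02 CPM in mono-culture, at 53.6, 63.2 and 60.7 CPM with control ECs, at 54.3, 60.5 and 56.6 CPM with senECs and at 46.8, 60.6 and 72.4 CPM with EGCG-treated senECs. Its libraries of mono-culture lay below those of control ECs and senECs, and EGCG-treated senECs overlapped with mono-culture. DTX3L had a log2 fold change of 0.27 (SE 0.13) in the co-culture with control ECs, 0.22 in that with senECs and 0.29 when these were EGCG-treated, and none passed the test (lowest unadjusted p = 0.0346, adjusted p = 0.55). The ratio of PARP9 to DTX3L in CPM was 0.181 to 0.285 in mono-culture and 0.432 to 0.566 over the 9 co-culture libraries. PARP14, a further ADP-ribosyltransferase that is encoded nearby, was at 41.9 to 78.9 CPM with no separation between groups. No source used here states that the counting used strand, so that reads in the overlap of PARP9 and DTX3L cannot be assigned to either gene with certainty.

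**Figure D2:**
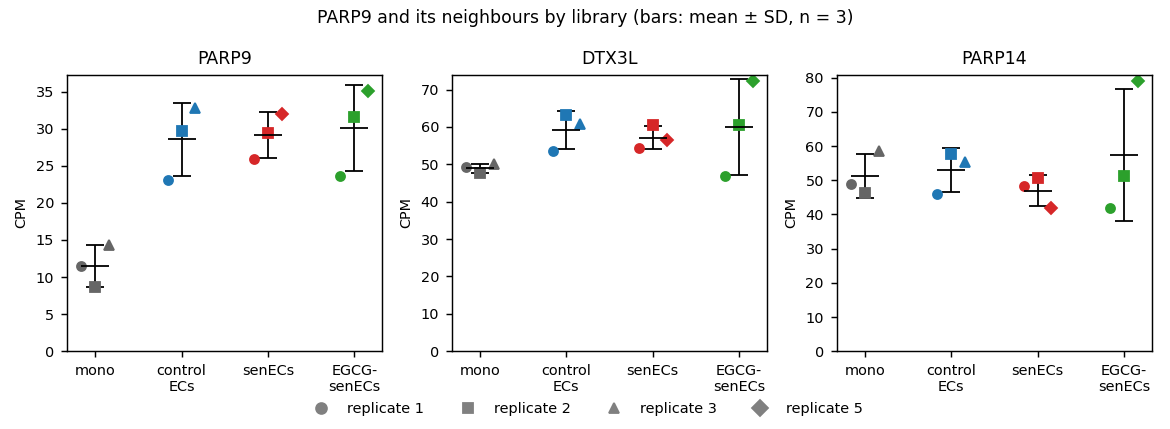
CPM of PARP9, DTX3L and PARP14 in each library by group (points, with a symbol per replicate number), with bars for the mean ± SD of 3 libraries. PARP9 lies between 8.61 and 14.3 CPM in mono-culture and between 23.1 and 35.0 CPM in the co-cultures, while DTX3L ranges from 46.8 to 72.4 CPM and PARP14 from 41.9 to 78.9 CPM.

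Beyond PARP9, co-culture with control ECs gave values near those of mono-culture for most of the 44 genes. 1 member was called, beside 0.143% of all genes tested. 4 members had an unadjusted p under 0.05, or 9.09% of them, where 6.52% of all genes did. The log2 fold change was above 0 for 35 of the 44, with a median of 0.13 beside 0.01 for all genes. In 6 members, IFIT1, IFIT2, MX1, OAS2, PARP9 and DTX3L, all libraries with control ECs lay above all of mono-culture, as in 6.25% of all genes, and no member was separated downwards, as 6.51% of all genes were. MX1 was at 4.66, 2.96 and 5.23 CPM in mono-culture and, beside control ECs, at 5.52, 5.98 and 10.2 CPM, or 0.75 on the log2 scale, which did not pass the test (adjusted p = 0.806, edgeR). LGALS3BP, a secreted glycoprotein that binds galectins, had the lowest value at -0.73 (adjusted p = 0.752), with overlapping libraries and a range of 8.77 to 19.6 CPM in mono-culture alone. RSAD2 came next with -0.30, and among members with a mean of at least 1 CPM, TRIM22 was the highest after PARP9 with 0.76 (adjusted p = 0.883). Below that mean, IFIT1 had the highest value of all 44 genes, 1.44 (adjusted p = 0.755).

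With senECs, 1 member was again called, beside 0.309% of all genes. An unadjusted p under 0.05 was found for 11 members (25%, beside 11% of all genes), 9 of them above mono-culture (5.76% of all genes) and 2 below (5.24%). Of the 44 log2 fold changes, 32 were above 0, with a median of 0.20 beside -0.02 for all genes. The groups were separated upwards for 10 members (8.18% of all genes): IFIT1, MX1, OAS1, OASL, IFI44, HERC5, EPSTI1, PARP9, DTX3L and IRF7. RSAD2 was separated downwards (8.5% of all genes). OASL, an OAS relative that strengthens sensing of RNA by DDX58, was at 0.44, 1.45 and 1.43 CPM in mono-culture and at 1.65, 3.01 and 3.08 CPM with senECs, with a log2 fold change of 1.20 (adjusted p = 0.317). RSAD2 was at 4.48, 5.17 and 5.01 CPM in mono-culture and at 3.92, 2.43 and 3.14 CPM with senECs, with a log2 fold change of -0.62 (adjusted p = 0.329). LGALS3BP had -0.43. STAT2, at 45.1, 49.4 and 55.7 CPM in mono-culture and 37.9, 46.9 and 39.2 CPM with senECs, had -0.28 (adjusted p = 0.45). None of these passed the test. CD14, the LPS co-receptor on monocytes, moved in the same comparison, from 5.91, 9.91 and 11.0 CPM to 16.6, 32.3 and 65.7 CPM (log2 fold change 2.09, adjusted p = 0.0363, edgeR). It was the only 1 of the 14 monocytic markers called, beside 0.309% of all genes, and 9 of the 14 had a log2 fold change above 0. The part of CD14 in these values was not tested.

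With EGCG-treated senECs against mono-culture, 1 member was called, beside 0.213% of all genes. An unadjusted p under 0.05 was found for 18 members (40.9%, beside 8.58% of all genes), all of them with a value above mono-culture (4.05% of all genes). Of the 44 fold changes, 37 were above 0 on the log2 scale, with a median of 0.36 beside 0.00 for all genes. Without EGCG-treated senECs replicate 5 these figures were 5 members with an unadjusted p under 0.05 (7.32% of all genes), 26 of 44 above 0 and a median of 0.12. The groups were separated upwards for 7 members (6.4% of all genes), namely MX1, OASL, ISG15, IFI27, HERC5, PARP9 and TRIM22, and downwards for RSAD2 (7.72% of all genes). Among members with at least 1 CPM, IFI44 had the highest log2 fold change, 1.96 (adjusted p = 0.396), and TRIM22, a RING ubiquitin ligase that restricts viral transcription, came next at 1.88 (adjusted p = 0.15). TRIM22 was at 1.43, 0.54 and 0.61 CPM in mono-culture and at 1.71, 2.80 and 4.87 CPM with EGCG-treated senECs. Without replicate 5, IFI44 had 0.18 and TRIM22 1.40. Of the members under 1 CPM, IFIT1 had the highest value of all 44, 1.97, and IFI27 had 1.72 (adjusted p = 0.489, edgeR). IFIT1 was not called, and it was highest in replicate 5 at 1.87 CPM. RTP4, a chaperone of receptors and an inhibitor of the sensor IFIH1, had -0.39 and LGALS3BP -0.55, and neither passed the test.

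By role, the genes that degrade viral RNA or block its translation had the 2 highest medians with control ECs and with senECs. In the OAS family with ISG20 the median log2 fold change over 5 genes was 0.48 beside control ECs, 0.43 beside senECs and 1.25 beside EGCG-treated senECs. Without EGCG-treated senECs replicate 5 the last of these was 0.40. In the IFIT family with EIF2AK2 it was 0.49, 0.50 and 0.50, again over 5 genes, and the last was 0.05 without that library. Of these, EIF2AK2 (PKR), the kinase that stops translation, had 0.12, -0.03 and 0.21. The 3 RNA sensors IFIH1, DDX58 and DDX60 had medians of 0.04, -0.01 and 0.11. None of the genes in these groups was called.

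Comparison of senECs with control ECs asks what senescence of the ECs adds for the monocytes. No member was called (0% of all genes, which had 0 calls with edgeR and 0 with DESeq2). With an unadjusted p under 0.05 there was 1 member, HERC5, or 2.27% of the 44, beside 6.61% of all genes. Log2 fold changes were above 0 for 24 of the 44, with a median of 0.06 beside -0.01 for all genes. HERC5, the ligase that attaches ISG15 to newly made proteins, was at 3.31, 3.69 and 3.39 CPM with control ECs and at 5.37, 4.74 and 4.96 CPM with senECs. All 3 libraries with senECs lay above all of control ECs, as in 5.31% of all genes, and mono-culture stood at 2.92 to 3.66 CPM. HERC5 had 0.53 on the log2 scale (SE 0.21, unadjusted p = 0.0216, adjusted p = 0.728).

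Those standard interferon readouts that are listed here gave intervals around 0 between senECs and control ECs. IFIT1, read near the floor, had 0.46. The comparison also sets a library numbered 3 with control ECs against 1 numbered 5 with senECs. MX1 had a log2 fold change of 0.11 (95% interval -0.66 to 0.88), ISG15 0.28 (-0.20 to 0.77), OAS1 0.31 (-0.46 to 1.07), IFIT3 0.06 (-0.72 to 0.83) and STAT2 -0.11 (-0.36 to 0.15). For 34 of the 44 genes the interval stayed within 1 log2 unit of 0, so that for those a change of 2-fold or more lies outside it. The intervals use the normal distribution and are narrower than the quasi-likelihood test would give, so that 34 is an upper count. The interval was wider for genes of few counts, such as IFI44L, with -0.65 (-2.47 to 1.17). OASL had the highest value among members with at least 1 CPM, 0.72 (-0.10 to 1.54), and IRF9 had -0.35 (-0.87 to 0.16).

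Comparison of EGCG-treated senECs with senECs asks what EGCG on the ECs changes. No member was called (0% of all genes, with 0 calls by edgeR and 0 by DESeq2). An unadjusted p under 0.05 was found for 6 members (13.6%, beside 2.22% of all genes): MX1, MX2, OAS2, OAS3 and TRIM22 with values above senECs (1.24% of all genes), and RTP4 below (0.982%). The groups were separated upwards for IFI27 and TRIM22, as for 3.17% of all genes. IFI27, with a mean under 1 CPM, had the highest log2 fold change of the 44, 1.30 (unadjusted p = 0.0563, edgeR). Fold changes were positive on the log2 scale for 35 of the 44, with a median of 0.18 beside 0.00 for all genes. The count by edgeR and by DESeq2 over all genes against control ECs was likewise 0. Against control ECs they were positive for 39 of the 44, with a median of 0.16, and again no member was called (0% of all genes), with 6 members at an unadjusted p under 0.05 (4.55% of all genes), all of them above control ECs (1.72%): MX1, IFI6, EPSTI1, TRIM22, HERC5 and OASL. HERC5 was separated upwards (4.04% of all genes) and RTP4 downwards (5.45%). Without EGCG-treated senECs replicate 5 the medians were -0.06 in both comparisons, with 14 of 44 genes above 0 in each. With an unadjusted p under 0.05 there were then 0 members against senECs (1.7% of all genes) and 1 against control ECs (3.91% of all genes).

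The values of the single libraries show how far this rested on replicate 5. With EGCG-treated senECs, MX1 was at 5.85, 9.85 and 28.1 CPM, the last in replicate 5, while the other 9 libraries lay between 2.96 and 10.2 CPM. OAS2, a synthase of the 2-5A signal that activates RNase L, was at 5.79, 10.7 and 27.9 CPM, beside 5.28 to 13.0 CPM elsewhere. OAS3, the main 2-5A synthase in many human cells, was at 34.8, 45.4 and 113 CPM, beside 29.7 to 59.6 CPM elsewhere. In each of these genes, replicates 1 and 2 lay within the range of the other groups.

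IFI44 was at 0.97, 1.08 and 8.46 CPM with EGCG-treated senECs, beside 0.53 to 3.38 CPM elsewhere. EPSTI1, first described in epithelium facing stroma, was at 0.73, 2.48 and 7.82 CPM, beside 0.62 to 2.48 CPM elsewhere. IFIT1 was at 0.37, 0.64 and 1.87 CPM, beside 0.06 to 1.16 CPM elsewhere. For 10 members (22.7%) replicate 5 held at least 1.5 times the next highest library: EPSTI1, MX1, IFI44, OAS2, XAF1, OAS3, OAS1, TRIM22, IFIT1 and SAMD9L. That was so for 2.2% of all genes tested and for 0.264% of the 14397 genes with a mean of at least 1 CPM. The ratio was 3.16 for EPSTI1, 2.75 for MX1 and 1.58 for SAMD9L.

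**Figure D3:**
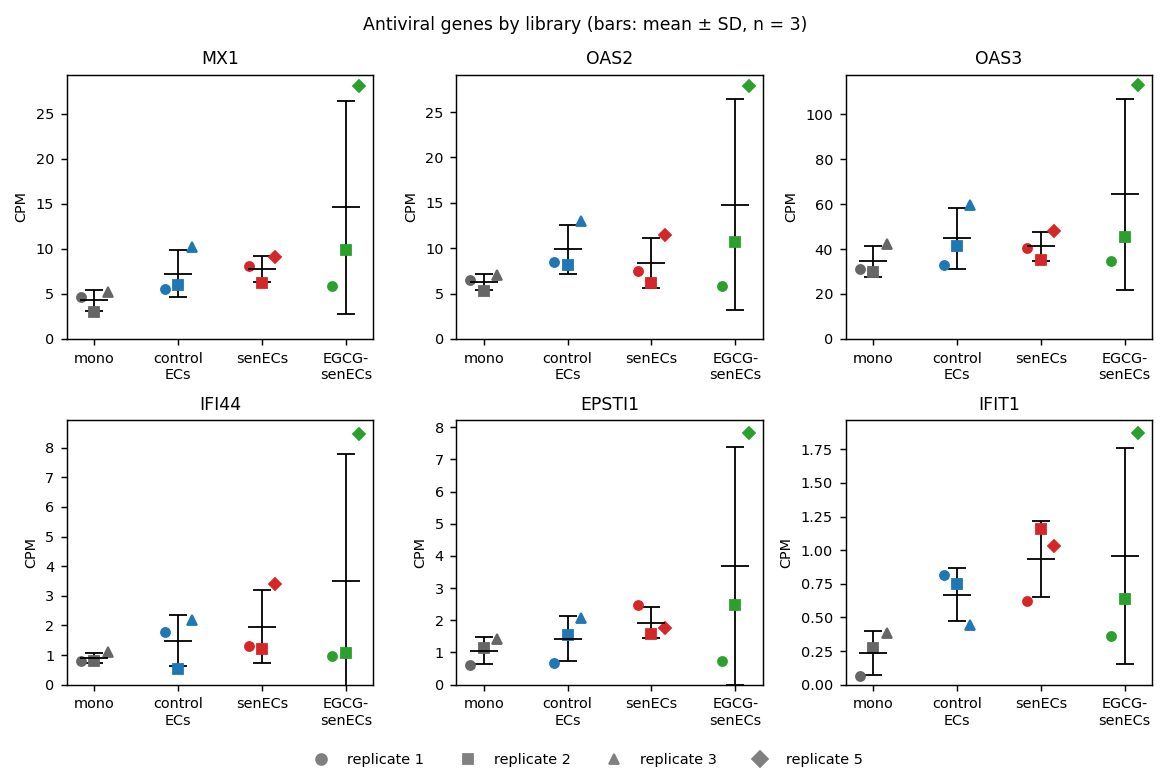
CPM of MX1, OAS2, OAS3, IFI44, EPSTI1 and IFIT1 in each library by group (points, with a symbol per replicate number), with bars for the mean ± SD of 3 libraries, not drawn below 0. The green diamond, EGCG-treated senECs replicate 5, is the highest library in each panel, at 28.1 CPM for MX1 and 113 CPM for OAS3.

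Not every member followed. Replicate 5 was the lowest of all libraries for RTP4, with 1.61 CPM beside 2.74 to 5.02 CPM elsewhere. It was not the highest for BST2, at 83.1 CPM beside 99.2 CPM in senECs replicate 5, nor for UBE2L6, at 27.4 CPM beside 31.5 CPM there. IFIT3 was at 4.12 CPM in it and at 4.71 CPM in senECs replicate 5. SAMD9, which stalls translation of viral messages, was at 16.5 CPM, beside 13.8 to 24.4 CPM elsewhere. Replicate 5 held 18736410 counts, within the range of the other libraries, and 0 counts of CDH5. Summed monocytic markers were 1465 to 1710 CPM over the 3 libraries with EGCG-treated senECs and 1367 to 2081 CPM over all 12. Without it, the log2 fold change of EGCG-treated senECs against senECs was 0.01 for MX1, where it had been 0.91 (SE 0.39), -0.03 for OAS2 (0.82 before), -0.04 for OAS3 (0.65 before) and -0.92 for IFI44 (0.86 before). EPSTI1 went from 0.94 to -0.28. TRIM22 stayed at 0.56 (1.04 before).

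**Figure D4:**
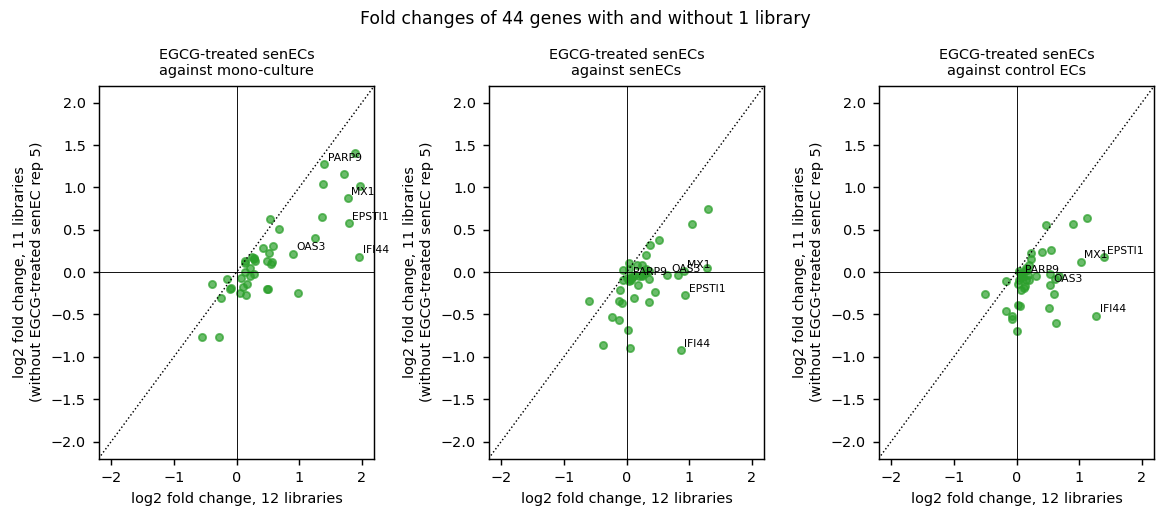
Log2 fold change of each of the 44 genes (points) in the 3 comparisons of EGCG-treated senECs, in the fit of 12 libraries (horizontal) against the fit of 11 libraries without EGCG-treated senECs replicate 5 (vertical), with the line of equal values dotted. PARP9 stays near the line in all 3 panels, while MX1, OAS3, IFI44 and EPSTI1 drop below it, IFI44 to -0.92 against senECs.

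Within a replicate number, EGCG-treated senECs and senECs did not differ in 1 direction. Between the libraries numbered 1, 12 of the 44 genes were higher with EGCG-treated senECs, with a median log2 difference of -0.12. Between those numbered 2, 32 were higher, with a median of 0.09. Between those numbered 5, 34 were higher, with a median of 0.34. With a single library on each side, none of these differences has an error of its own.

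The spread within groups was as wide as the differences between them. The mean of log2(CPM + 2) over the 44 genes was 3.34, 3.36 and 3.50 in mono-culture. It was 3.39, 3.50 and 3.69 for control ECs, 3.47, 3.51 and 3.70 for senECs and 3.36, 3.63 and 4.07 for EGCG-treated senECs. The co-cultures overlapped with each other. Replicates 1 and 2 of control ECs and replicate 1 of senECs and of EGCG-treated senECs lay within the range of mono-culture. The group means were 3.40 ± 0.09, 3.53 ± 0.15, 3.56 ± 0.12 and 3.69 ± 0.36 (SD, n = 3). The share of the variance in log2 level that lay between the 4 groups had a median of 26.2% over the 44 genes, beside 28.8% over the genes with at least 1 CPM. It was 87.1% for PARP9, 76.9% for HERC5 and 60.8% for RSAD2.

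**Figure D5:**
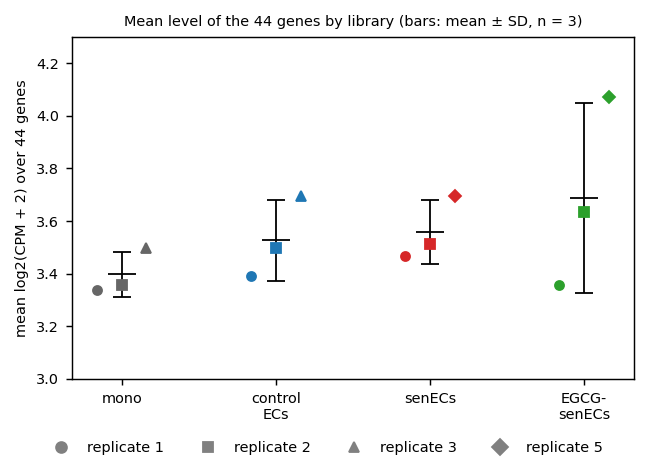
Mean of log2(CPM + 2) over the 44 genes in each library by group (points, with a symbol per replicate number), with bars for the mean ± SD of 3 libraries; the vertical axis starts at 3. EGCG-treated senECs replicate 5 is the highest library at 4.07 and mono-culture replicate 1 the lowest at 3.34.

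Part of this spread went with the replicate number that the labels give, whose meaning they do not state. In a model with group and number, 5 members were called higher in number 2 than in number 1 (BST2, IFI6, OASL, PLSCR1 and UBE2L6), beside 2.73% of all genes called higher. In number 3 against 1, 10 members were called higher (2.9% of all genes), with a median log2 fold change of 0.28. In number 5 against 1, 21 members were called higher and 0 lower (4.7% of all genes called higher), with a median of 0.57 beside -0.05 for all genes. Without EGCG-treated senECs replicate 5, which is 1 of the 2 libraries of that number, 9 members were still called higher (6.56% of all genes), with a median of 0.33: BST2, IFI35, IFI6, IFIT3, LGALS3BP, LY6E, OAS2, PLSCR1 and UBE2L6. Number 3 occurs in mono-culture and with control ECs alone, and number 5 with senECs and EGCG-treated senECs alone, so that a comparison across those pairs of groups sets number 3 against number 5.

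UBE2L6 shows the pattern. In the libraries numbered 1 it was at 14.0, 13.7, 17.1 and 18.3 CPM in mono-culture and with control, senescent and EGCG-treated ECs, and in those numbered 2 at 23.3, 23.3, 26.5 and 29.5 CPM in the same order. The 4 libraries numbered 2 lay above the 4 numbered 1, with a log2 fold change of 0.70 (SE 0.11, adjusted p = 2.79e-08, edgeR). LY6E was at 33.0 and 37.8 CPM in the libraries numbered 3 and at 38.1 and 41.9 CPM in those numbered 5, beside 18.7 to 24.3 CPM in the other 8. Its log2 fold change in number 5 against 1 was 0.88 (SE 0.13, adjusted p = 6.19e-09). CD14 moved with the number as well, with log2 fold changes of 0.86, 1.12 and 1.75 for numbers 2, 3 and 5 against 1. The 14 monocytic markers did not all go that way. For number 2 against 1, 7 were called higher and 1 lower (2.73% and 2.15% of all genes). For number 3 these were 7 and 2 (2.9% and 0.897%), and for number 5, 8 and 2 (4.7% and 3.46%). The part of CD14 or of the monocytic state in the level of the interferon-stimulated genes was not tested.

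Of the ligands, almost no RNA was present. Of 21 interferon genes looked at, 16 had no count in any library, and IFNB1 alone passed the filter. IFNB1, the first type I interferon made after LPS, had 10 counts in all, of which 5 were in EGCG-treated senECs replicate 5, 3 in control ECs replicate 1, and 1 each in control ECs replicate 3 and senECs replicate 5. With so few counts no difference between groups was detectable. The type II interferon gene IFNG had 0 counts.

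Both chains of the receptor were present in all libraries. IFNAR1 had a mean of 72.0 CPM (11.4 FPKM) and IFNAR2 8.0 CPM (1.73 FPKM).

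The 52 tested genes of the pathway outside the 44 gave 0 calls in the 6 comparisons among groups with edgeR, where 0 to 0.309% of all genes were called. At an unadjusted p under 0.05 there were 9 of them for control ECs (6.52% of all genes), 8 for senECs (11%) and 10 for EGCG-treated senECs (8.58%) against mono-culture. There were 0 for senECs against control ECs (6.61% of all genes), 1 for EGCG-treated senECs against senECs (2.22%) and 4 against control ECs (4.55%). Without EGCG-treated senECs replicate 5, which left 50 of them to test, those with EGCG treatment were 6, 1 and 1 in the same order (7.32%, 1.7% and 3.91% of all genes). The transcription factors IRF1 and IRF3 had means of 54.4 and 87.5 CPM, and the inhibitor SOCS1 0.77 CPM. CXCL10, a chemokine that draws in T cells and is a secreted product of the response, was at 2.08 to 6.96 CPM, highest in EGCG-treated senECs replicate 5. Against the number 1, number 5 had 11 of the 52 called higher, beside 4.7% of all genes, and 1 lower, beside 3.46%. Without EGCG-treated senECs replicate 5 these were 9 of 50 (6.56% of all genes) and 1 (4.1%). Among the 11, SIGLEC1, the sialic acid receptor that interferon induces on monocytes, had a log2 fold change of 1.38, and of 0.65 without that library, which did not pass the test (adjusted p = 0.0511, edgeR). SIGLEC1 was at 35.6 CPM in EGCG-treated senECs replicate 5 and at 6.85 to 13.8 CPM in the other 11 libraries.

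The sum of the 14 endothelial markers was 157 to 183 CPM in mono-culture, where no ECs were present, and 155 to 176 CPM with control ECs, 196 to 236 CPM with senECs and 187 to 243 CPM with EGCG-treated senECs. Both co-cultures with etoposide-treated ECs lay above mono-culture in that sum, and its part in the values of the interferon-stimulated genes was not tested. Most of the sum was PECAM1, which monocytes also express, with a mean of 163 CPM. CDH5 was at 0 in 10 of the 12 libraries. Of 11 endothelial markers tested, 0 were called among groups. With the replicate number as a term, 1 was called higher with senECs than in mono-culture (2.74% of all genes). At an unadjusted p under 0.05 (edgeR), 3 were higher with senECs than in mono-culture (5.76% of all genes). Against control ECs 2 were (6.61% in either direction), with a log2 fold change of up to 4.74. With EGCG treatment these were 1 (4.05%) and 2 (1.72%), and 0 were lower.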

How the data were processed

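RNA of LPS-stimulated THP1 cells was sequenced in 12 libraries of 4 groups. The study's methods remove adapter and low-quality reads, and the submitters' processing notes name HISAT2 and hg38. The counting program, its strand setting and the annotation are not given in the sources used here. The authors deposited raw counts per gene symbol, without normalization, and all 57169 distinct symbols occur in GENCODE release 29, which gave positions and lengths. The table has 4 further columns that match no described sample and were not used. Every row names a gene.

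Groups were tested with edgeR 4.0.16 (quasi-likelihood, TMM, Benjamini-Hochberg over all 25873 genes with at least 10 counts in total, adjusted p of 0.05) in R 4.3.3, all 12 libraries in 1 model without further terms. Each standard error was taken as log2 fold change over root F, and gave the 95% interval by the normal distribution. That interval is narrower than the F test itself would give. The model with replicate number added the number as a term. CPM uses TMM library sizes, and log2 CPM adds 2. With 3 libraries a group, precision is limited by the spread between libraries more than by depth, which was 15439836 to 22092600 counts.

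The 44 genes, the pathway lists and the tests were chosen with earlier results of these data known. Members named with values are those called, those with the 2 highest and 2 lowest fold changes of a comparison (mean of at least 1 CPM), the 5 highest by FPKM, the 5 with the widest spread within groups and a set of standard interferon readouts. DTX3L, PARP14, MX2, EIF2AK2, SAMD9L, XAF1, IFI35, SIGLEC1 and CD14 fall outside it and were named after their values were seen. 1 gene that the rule names is not reported here. The alternatives were DESeq2 1.42.0, its size factors, 2 other filters on counts, a replicate block, the libraries numbered 1 and 2 alone, a pseudocount of 0.5 and each library left out. Scripts were tested on simulated data. Promoter windows are from RefSeq. Tables and figures used Python 3.11.15, pandas 2.3.3, numpy 2.4.6 and matplotlib 3.10.9.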

Additional observations from a re-analysis of the deposited data

How the results depend on the processing

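PARP9 kept its direction and passed the threshold under each alternative and with each library left out. The number of genes called moved more. In the order control ECs, senECs, EGCG-treated, it was 37, 80 and 55 against mono-culture, and 120, 347 and 230 with DESeq2, 223, 588 and 377 over every gene with a count, and 22, 17 and 22 with the libraries numbered 1 and 2 alone. With at least 10 counts in every library, EGCG-treated senECs against mono-culture gave 36. Over every gene with a count, senECs against control ECs gave 114, EGCG-treated senECs against senECs 14 and against control ECs 43, where each had 0, and the libraries numbered 1 and 2 alone gave 1 for senECs against control ECs. With 1 library left out the ranges were 11 to 44, 19 to 255 and 12 to 100 against mono-culture, 0 to 1 against control ECs in both comparisons, and 0 to 0 for EGCG treatment against senECs. The lowest counts against mono-culture came without mono-culture replicate 2 (11 and 12) and senECs replicate 2 (19), the highest without senECs replicate 5 (44 and 100) and senECs replicate 1 (255).

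Of the 44 members, DESeq2 called 2 (PARP9 and TRIM22) with EGCG-treated senECs against mono-culture, among 230 genes called in all. Over every gene with a count (58735 rows less 23968 with none), 2, 4 and 11 members were called against mono-culture, among 223, 588 and 377 genes. There were 3 for EGCG treatment against senECs, among 14 genes, and 2 against control ECs, among 43. Left-out libraries gave 1 to 1, 1 to 1 and 1 to 4 members against mono-culture, the 4 without EGCG-treated senECs replicate 1. All genes called in those fits ran from 11 to 44, 19 to 255 and 12 to 100. For number 2 against 1, 5 became 3 to 7. For number 3 against 1, 10 became 3 to 12, with 3 without control ECs replicate 3 (360 genes called in all) and 6 with at least 10 counts in every library. For number 5 against 1, 21 became 9 to 20. There were 9 without EGCG-treated senECs replicate 5 (2722 genes called in all) and 10 without replicate 1 of that group (1349 genes). DESeq2 called 13 members, and its total over all genes is not reported here, so that the 13 cannot be set beside a share. Genes called between numbers ranged over 636 to 1841, 360 to 1459 and 1287 to 2722, from 1263, 982 and 2112.

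The median of the members for EGCG-treated senECs against mono-culture, 0.36, was 0.14 with numbers 1 and 2 alone and 0.12 to 0.50 with 1 library left out. Against senECs it ran from -0.064 to 0.364, against control ECs from -0.061 to 0.297, and for number 5 against 1 from 0.33 to 0.77, each lowest without EGCG-treated senECs replicate 5. With numbers 1 and 2 alone, IFI44L reversed for senECs against control ECs (1.48), and IFI44 (-0.17), OAS2 (-0.026) and SAMD9 (0.031) for EGCG treatment against control ECs. With 1 library left out, IFI44L ran from -1.26 to 1.54 for senECs against control ECs, highest without control ECs replicate 3, and LGALS3BP from -0.87 to 0.038 against mono-culture, highest without mono-culture replicate 3. Against senECs, OAS2 with EGCG treatment ran from -0.029 to 1.21 and OAS3 from -0.037 to 0.956. Against control ECs, IFI44 ran from -0.52 to 1.71, OAS2 from -0.26 to 0.97 and OAS3 from -0.16 to 0.825. The 5 last ranges were lowest without EGCG-treated senECs replicate 5. The cause was not tested. Ordered by CPM in place of FPKM, 2 of the 5 highest members remained.

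Replicate numbers were not treated as pairs in the main model, because the labels do not say what they mark. Correlations between same-numbered libraries of different groups, in deviations from the group means, were all positive, from 0.03 to 0.58. They were 0.46 to 0.58 for number 1 and 0.03 to 0.34 for number 2. Between libraries numbered 1 and those numbered 3 or 5 they were -0.56 to -0.29. Between libraries numbered 3 and those numbered 5 they were 0.37 to 0.53, beside 0.34 between the libraries numbered 5. The main model leaves this shared part in the spread within groups. With a replicate block, 469, 709 and 424 genes were called against mono-culture, 153 for senECs against control ECs, and 13 and 34 for EGCG treatment against senECs and control ECs. Of the members, 5 were called with control ECs (PARP9, MX1, OAS2, OAS3 and LGALS3BP), 2 with senECs (PARP9 and MX1) and 9 with EGCG treatment (PARP9, MX1, OAS2, OAS3, OASL, EPSTI1, IFI6, PLSCR1 and TRIM22) against mono-culture, and 1 (OAS3) for EGCG treatment against senECs, beside 1.81%, 2.74%, 1.64% and 0.0502% of all genes, and not every library correlated best with its own number. IFI44L then had 0.72 for senECs against control ECs.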
